A study of Mus musculus with 64 samples.

Results

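Bdnf, the neurotrophin Ntf3, the receptors Ntrk2, Ntrk3 and Ngfr, the sorting receptor Sort1 and the neuropeptide precursor Vgf were followed through the hippocampus of mice with and without maternal Ube3a, after corticosterone (CORT) or vehicle. These 7 genes were chosen by symbol from 55414 gene identifiers in the acute count table and 55573 in the continuous one. The rule names no measured value, though it was written with earlier results of these data known, and all 7 passed the filter on low counts in the hippocampus of both cohorts. The study asked how the ubiquitin ligase UBE3A bears on glucocorticoid receptor signalling.

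The mice were adult males of 10 to 18 weeks from a cross of C57BL/6J and 129sv. They were either wild type (WT) or a model of Angelman syndrome (AS, Ube3a m-/p+), in which exon 5 of the maternal Ube3a allele is deleted. The paternal allele is intact in these AS mice. It is silent in neurons and active in other cells, liver included. In the acute cohort the left hippocampus of 24 mice (6 in each of the 4 groups WT vehicle, WT CORT, AS vehicle and AS CORT) was collected 3 h after a subcutaneous injection of vehicle or 3 mg/kg CORT. In the continuous cohort 20 other mice (5 per group) carried pellets under the skin for 5 days, holding either vehicle or 20 mg CORT, and their hippocampus and liver were collected. Each library came from 1 mouse. The measured tissue is bulk, so fewer cells of a type and less RNA per cell cannot be told apart.

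Neurotrophins are secreted growth factors that keep neurons alive and tune their synapses. BDNF binds TrkB, the product of Ntrk2, and neurotrophin-3, the product of Ntf3, binds TrkC, the product of Ntrk3. Trk receptors are kinases that signal through the MAP kinase, PI3 kinase and phospholipase C gamma routes. The p75 receptor, encoded by Ngfr, binds all neurotrophins and, together with sortilin (Sort1), their uncleaved proforms. Bdnf has several promoters that splice to a shared coding exon, is induced by neuronal activity, and is one of the genes most often studied in the stressed or glucocorticoid-exposed hippocampus. Vgf is a neuronal gene whose product is cut into secreted peptides and that responds to neurotrophins.

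On the mouse build GRCm38, Bdnf (ENSMUSG00000048482) lies on the plus strand at chr2:109674700-109727007. Ntf3 (ENSMUSG00000049107) lies on the minus strand at chr6:126101412-126166910. The receptor genes are Ntrk2 (ENSMUSG00000055254) on the plus strand at chr13:58806569-59133970, Ntrk3 (ENSMUSG00000059146) on the minus strand at chr7:78175959-78738012 and Ngfr (ENSMUSG00000000120) on the minus strand at chr11:95568818-95587735. Sort1 (ENSMUSG00000068747) is at chr3:108284082-108361511 and Vgf (ENSMUSG00000037428) at chr5:137026392-137033351, both on the plus strand. An antisense gene overlaps the exons of Bdnf over 896 bases (Gm45346) and those of Sort1 over 338 bases (Gm12523). The libraries were stranded, but the strand setting of the counting is not given in the sources used here, so reads of these stretches may not be separated.

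CORT acts through a receptor that binds DNA, so the start-site windows of the members were searched for its element. RefSeq windows on GRCm38.p6, from 250 bases before to 50 bases after a start site, were held for 4 of the 7 genes. Bdnf had 7 windows, Ntf3 had 2, and Ngfr and Ntrk2 had 1 each. The full palindromic glucocorticoid response element was in 0 of these 11 windows, and in 3 of all 32851 windows (0.00913%). Its half-site TGTTCT, read on either strand, was in 3 of the 7 Bdnf windows and in 19% of all windows (6233). The cyclic AMP response element TGACGTCA was in 0 of the 11 windows and in 1.79% of all (588). The variant CACGTCA was in 1 Bdnf window and in 2.01% of all (661). None of these letters occurred in the windows of Ntf3, Ngfr or Ntrk2. Such a match is a description of the letters and not a binding site. The full element was searched in its exact letters alone. At its share of all windows, nearly any 11 windows would give 0, so nothing follows from that 0. The windows below show the first Bdnf start site, an internal Bdnf start site with the CACGTCA letters, and the only Ntrk2 window. They were chosen because Bdnf is the ligand and Ntrk2 its receptor. Capitals mark the half-site (on the minus strand, so printed as its reverse complement) and the variant, and the Ntrk2 window holds no match.
Bdnf, chr2:109674450-109674749, plus strand: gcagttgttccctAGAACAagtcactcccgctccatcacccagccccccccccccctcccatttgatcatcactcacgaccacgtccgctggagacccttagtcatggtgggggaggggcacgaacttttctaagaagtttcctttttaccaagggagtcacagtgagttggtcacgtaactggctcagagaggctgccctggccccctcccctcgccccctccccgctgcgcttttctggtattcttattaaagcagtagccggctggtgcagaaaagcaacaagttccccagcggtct
Bdnf, chr2:109692186-109692485, plus strand: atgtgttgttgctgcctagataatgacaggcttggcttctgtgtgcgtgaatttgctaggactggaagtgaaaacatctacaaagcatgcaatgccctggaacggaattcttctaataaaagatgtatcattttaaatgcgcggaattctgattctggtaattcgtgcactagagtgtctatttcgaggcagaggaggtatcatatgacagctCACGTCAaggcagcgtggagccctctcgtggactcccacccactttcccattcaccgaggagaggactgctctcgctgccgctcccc
Ntrk2, chr13:58806319-58806618, plus strand: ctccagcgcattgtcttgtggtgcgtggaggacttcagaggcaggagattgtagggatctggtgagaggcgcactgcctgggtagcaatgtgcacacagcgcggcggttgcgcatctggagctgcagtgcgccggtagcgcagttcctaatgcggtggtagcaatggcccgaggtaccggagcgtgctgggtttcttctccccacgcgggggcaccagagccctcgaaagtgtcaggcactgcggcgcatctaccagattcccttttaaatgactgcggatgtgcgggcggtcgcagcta

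Counts on genes ran from 19049461 to 21052967 per library in the acute hippocampus and from 19112929 to 21783009 in the continuous hippocampus. Levels are given as CPM (counts scaled to a common library size) after TMM, which evens out library composition, and differences as log2 fold changes with their standard error (SE) from edgeR's quasi-likelihood test. P-values were adjusted over all 14611 genes tested in the acute and 14949 in the continuous hippocampus, with 0.05 as the threshold. Fkbp5, a classical target of the glucocorticoid receptor, had 58.8 to 70.8 CPM in WT vehicle mice and 103 to 128 CPM in WT CORT mice of the acute cohort, and 48.6 to 60.5 against 113 to 126 CPM in AS mice. Gene-level Ube3a counts did not separate the genotypes (acute vehicle mice, log2 fold change -0.06, adjusted p = 0.895, edgeR), and with only exon 5 deleted they do not check the labels.

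Some libraries stood apart before any comparison was made. In the continuous hippocampus, H9 (AS vehicle) and H13 (WT vehicle) were left out of the study's analysis and of the fit here, which leaves 4 WT vehicle, 5 WT CORT, 4 AS vehicle and 5 AS CORT libraries. Slc17a7, a marker of excitatory hippocampal neurons, was at 592 CPM in H9 and 367 CPM in H13 against 1744 to 2238 CPM in the other 18. H9 held 887 CPM of Prkcd, a thalamic marker (11.9 to 79.1 in the others). The members showed it too. Bdnf was at 7.27 CPM in H9 and 6.59 in H13 against 33.7 to 52.3 elsewhere, and Ntf3 at 0.177 and 0.398 against 4.71 to 11.6. Both ligands were thus far below all other libraries in these 2 tissue pieces. Ngfr was high instead, at 4.03 CPM in H9 and 13.9 CPM in H13 against 0.744 to 2.95. H13 also had 13.3 CPM of Chat, the enzyme of acetylcholine synthesis, against at most 0.512 elsewhere. Ntrk2, at 634 and 653 CPM, lay within the range of the others (534 to 733).

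The acute libraries also divided in a way their labels do not name. The file's own tally of reads set aside for low alignment quality was 1877 to 2237 in H1 to H16 and 2640 to 2850 in H17 to H24. H1 to H16 hold all 12 WT mice and 4 AS vehicle mice. H17 to H24 hold the other 2 AS vehicle mice and all 6 AS CORT mice. Among mice given CORT, this division and the genotype cannot be told apart. The acute values of AS mice that the results turn on are therefore also given with the division as a covariate. Only the AS vehicle group holds libraries of both sides, so the covariate rests on those 4 and 2 mice.

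Across 10 comparisons of the 7 genes (70 pairs), 4 pairs passed the threshold. In the acute cohort 0 of 7 members were called for CORT in WT mice (1.48% of all genes tested were called) and 1 of 7 for CORT in AS mice (17.9%). Between genotypes, 0 of 7 were called with vehicle (0.157%) and 1 of 7 with CORT (24.9%). The interaction, which subtracts the CORT response of WT mice from that of AS mice, called 1 of 7 (4.49%). All 3 of these acute calls were Vgf. In the continuous cohort 0 of 7 were called for CORT in WT mice (2.92%), 1 of 7 for CORT in AS mice (3.77%), 0 of 7 between genotypes with vehicle (0.0134%) and 0 of 7 between genotypes with CORT (0.0401%). The continuous call was Ntrk2. The continuous interaction called 0 of 14949 genes (0%) with edgeR, where 561 had an unadjusted p under 0.05, and DESeq2 and limma-voom called 0 as well. For acute CORT in AS mice and between genotypes with CORT, 1 of 7 members is near or below the share of all genes called.

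**Figure D1:**
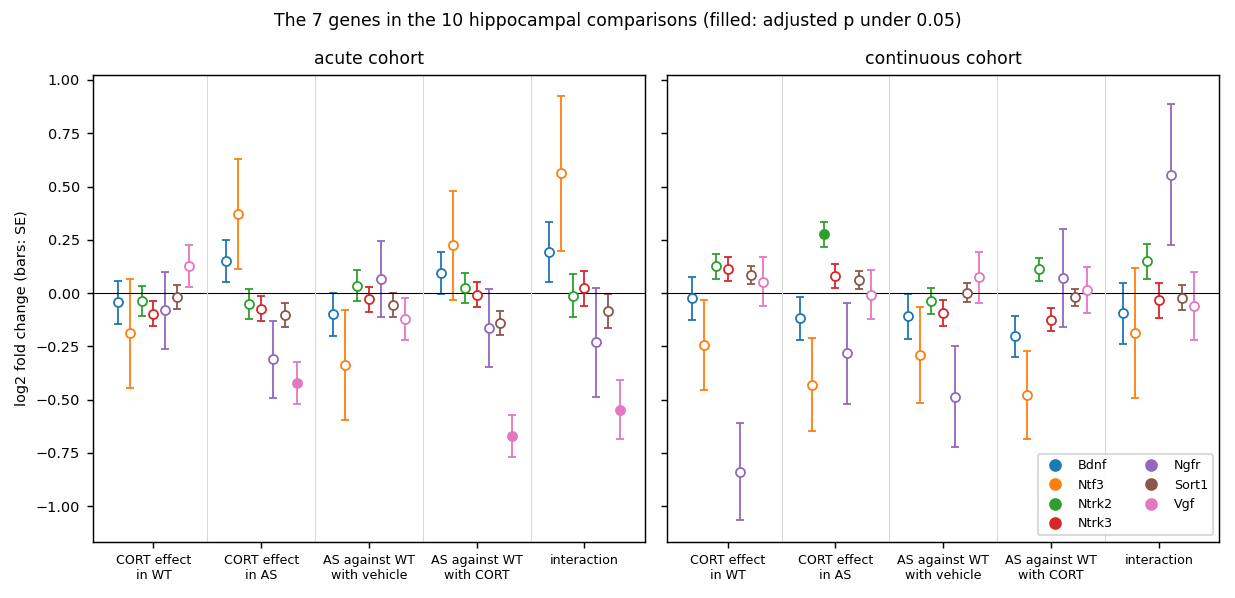
Log2 fold change of each of the 7 genes (vertical axis, bars are 1 SE) in each of the 10 hippocampal comparisons (horizontal axis) of the acute and continuous cohorts, with filled points past the threshold. Filled are Vgf in 3 acute comparisons and Ntrk2 for continuous CORT in AS mice, and the Bdnf values stay between -0.20 and 0.19.

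Bdnf mRNA did not differ by the test in any of the 10 comparisons. In the acute cohort it measured 34.3, 37.9 and 41.1 CPM (lowest, median and highest of 6 libraries) in WT vehicle mice and 31.5, 34.3 and 50.9 CPM in WT CORT mice. AS vehicle mice had 32.7, 34.5 and 38.7 CPM and AS CORT mice 31.1, 39.9 and 45.4 CPM. The 4 groups overlapped, and the 1 value above 46 CPM came from library H8 of the WT CORT group. The log2 fold change with CORT was -0.04 (SE 0.10, adjusted p = 0.914, 95% interval -0.239 to 0.152) in WT and 0.15 (SE 0.10, adjusted p = 0.301, interval -0.0458 to 0.346) in AS mice. With the division as a covariate the value in AS mice was 0.11 (adjusted p = 0.948), and against H17 and H18 alone 0.10 (adjusted p = 0.963). Without H8 the value in WT mice was -0.16 (SE 0.0817, adjusted p = 0.477), AS against WT mice given CORT moved from 0.09 (adjusted p = 0.513) to 0.20 (adjusted p = 0.069) and the interaction from 0.19 (adjusted p = 0.418) to 0.29 (SE 0.113, adjusted p = 0.091). With the division as a covariate these last values were 0.03 (adjusted p = 0.993) and 0.15 (adjusted p = 0.932). H8 was also the highest acute library for Ntf3 and the lowest for Ntrk2.

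After 5 days of CORT, Bdnf again showed no called difference. WT vehicle mice had 49.1, 41.2, 46 and 42.4 CPM and WT CORT mice 52.3, 34.6, 51.7, 41.7 and 39.4 CPM. AS vehicle mice had 40.1, 39.3, 45.1 and 41.1 CPM and AS CORT mice 33.7, 37.2, 42, 39.1 and 38.8 CPM. WT CORT libraries spanned the whole range of WT vehicle libraries and more, and AS CORT libraries sat low but overlapped with AS vehicle. The log2 fold change was -0.03 (SE 0.101, adjusted p = 0.946) in WT and -0.12 (SE 0.102, adjusted p = 0.66) in AS mice. AS CORT against WT CORT mice gave -0.20 (unadjusted p = 0.0474, adjusted p = 0.482). Over the 10 comparisons the 95% intervals of Bdnf ran from -0.391 to 0.471 on the log2 scale in the fit of 24 acute and 18 continuous libraries. Those limits did not hold in other fits, since with H9 and H13 included the SEs of the continuous Bdnf values were 0.406 to 0.575. Gene-level counts sum all promoters, so a shift between Bdnf transcripts was not measured.

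Ntf3, which in the hippocampus is known from the granule cells of the dentate gyrus, was low and variable. In acute WT mice it measured 4.2, 6.53 and 9.92 CPM with vehicle and 3.28, 4.78 and 12.5 CPM with CORT (lowest, median and highest). AS mice had 3.12, 5.07 and 8.44 CPM with vehicle and 5.62, 6.77 and 9.67 CPM with CORT. All groups overlapped, and the ratio of the highest to the lowest library was 4, against 1.27 for Sort1. The interaction was 0.56 (SE 0.364, adjusted p = 0.353). It was 0.90 (adjusted p = 0.0519) without H8 and 1.06 (adjusted p = 0.0117) with limma-voom, which weights libraries by quality, and 0.35 (adjusted p = 0.934) with the low-quality-read division as a covariate.

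In the continuous cohort Ntf3 had 10.5, 9.58, 8.2 and 10.2 CPM in WT vehicle and 10.6, 5.35, 10.4, 6.29 and 8.12 CPM in WT CORT mice. AS vehicle mice had 4.71, 7.56, 11.6 and 7.59 CPM and AS CORT mice 4.92, 5.28, 5.86, 7.16 and 5.94 CPM. The AS CORT values lay below all WT vehicle values and in the lower part of the remaining groups. The log2 fold change with CORT was -0.43 (SE 0.218, adjusted p = 0.37) in AS mice and -0.24 (SE 0.212, adjusted p = 0.663) in WT mice. Leaving out 1 library moved the first to between -0.61 and -0.18, the latter without the AS vehicle library at 11.6 CPM, and the WT value to between -0.36 and -0.13. With H9 and H13 included these became -0.115 (adjusted p = 0.962) and 0.07 (adjusted p = 0.965). Ntf5, the gene of neurotrophin-4, was near the floor with 1 to 14 counts per acute library.

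**Figure D2:**
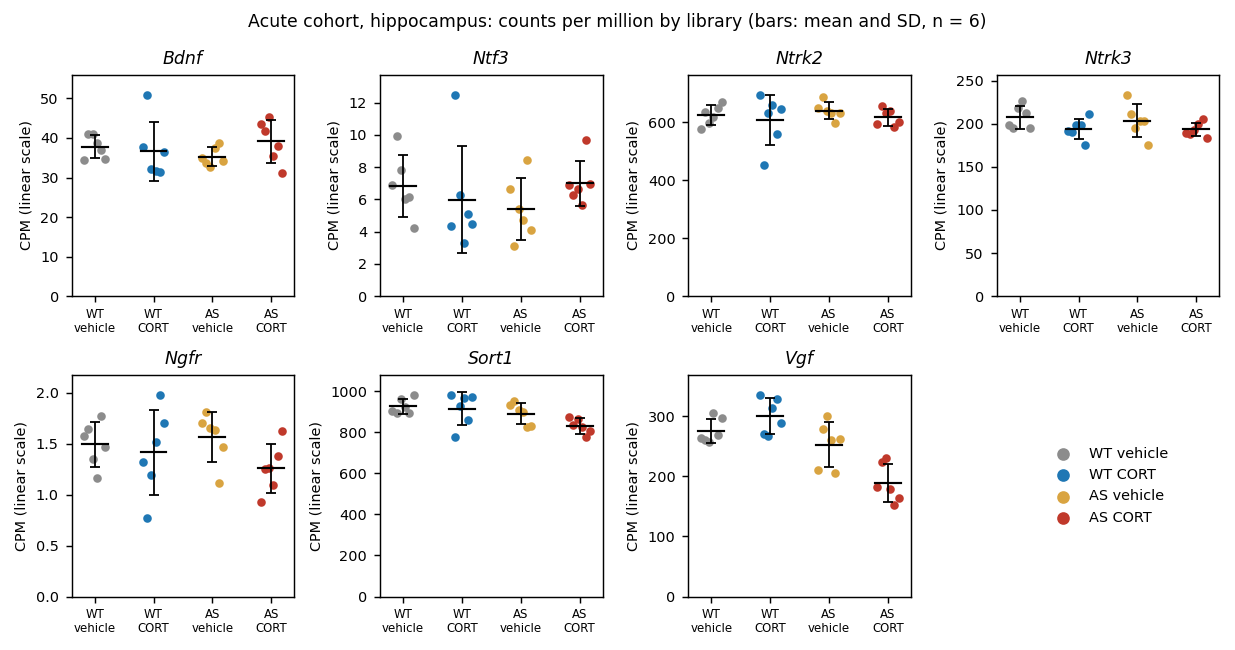
CPM of each of the 7 genes (vertical axis, from 0) in every acute library, by group, with group means and SD. The 6 AS CORT points of Vgf, at 153 to 231 CPM, lie below all 6 WT CORT points, while the 4 groups of Bdnf overlap.

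Ntrk2, the gene of the BDNF receptor TrkB, rose with continuous CORT in AS mice. It measured 557, 545, 569 and 534 CPM in AS vehicle mice and 733, 671, 599, 693 and 643 CPM in AS CORT mice. Every AS CORT library was above every AS vehicle library. The increase was 21% (log2 fold change 0.27, SE 0.0582, adjusted p = 0.00917, edgeR). In WT mice Ntrk2 measured 549, 567, 597 and 552 CPM with vehicle and 590, 684, 575, 638 and 603 CPM with CORT. WT libraries with CORT lay mostly above those with vehicle but overlapped with them (log2 fold change 0.13, SE 0.0581, adjusted p = 0.304). The difference between the 2 CORT effects was not called (interaction 0.15, SE 0.082, interval -0.0111 to 0.31, adjusted p = 1).

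With H9 and H13 included, the Ntrk2 value in AS mice was 0.23 (adjusted p = 0.138), no longer past the threshold, and H9, at 634 CPM, made the AS groups overlap. Leaving out any 1 of the 9 libraries compared, the value stayed between 0.24 and 0.31 and called (adjusted p 0.00332 to 0.0403). Ntrk2 is expressed in neurons and, as a form without the kinase, in astrocytes. Of 5 astrocyte markers, 3 fell with continuous CORT in each genotype, Aqp4 (log2 fold change -0.85 in both WT and AS mice), Gfap (-0.69 in WT, -0.55 in AS) and Gja1 (-0.35 in WT, -0.23 in AS). The other 2 were not called, with 0.07 in WT and 0.15 in AS mice for Aldh1l1 and -0.25 and -0.08 for Slc1a3. The summed astrocyte markers were 1224 to 1332 CPM in AS vehicle and 997 to 1169 CPM in AS CORT mice, a sum that was lower where Ntrk2 was higher. None of 7 hippocampal neuron markers was called there, 1 of 4 endothelial markers fell (Cldn5, -0.50), and the 5 thalamic markers had a median log2 fold change of -1.02 with no call and sums of 43.1 to 214 CPM in AS vehicle and 47.4 to 63.7 CPM in AS CORT mice. The part of any of these in the Ntrk2 value was not tested. Gene-level counts do not separate the receptor's forms.

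After the acute injection Ntrk2 did not move by the test. Its lowest, median and highest levels were 577, 626 and 671 CPM in WT vehicle, 454, 639 and 695 CPM in WT CORT, 598, 635 and 688 CPM in AS vehicle and 583, 616 and 656 CPM in AS CORT mice. The groups overlapped, and the 454 CPM came from H8. The log2 fold change with CORT was -0.04 (SE 0.0712, adjusted p = 0.893) in WT mice and -0.05 (SE 0.0712, adjusted p = 0.651) in AS mice. The first became 0.04 without H8, and the second 0.0069 (adjusted p = 0.999) with the division as a covariate.

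**Figure D3:**
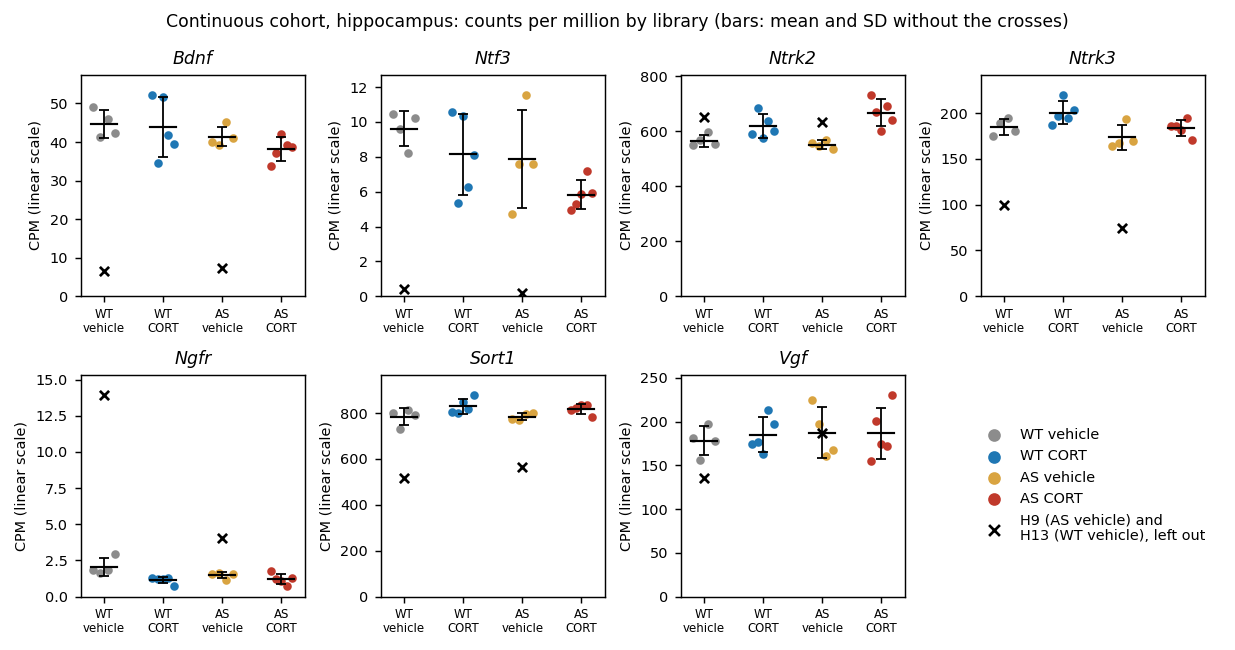
CPM of each of the 7 genes (vertical axis, from 0) in the continuous hippocampal libraries by group, with the mean and SD of the 18 in the fit and crosses for H9 and H13, which were left out. The 5 AS CORT points of Ntrk2, from 599 to 733 CPM, lie above the 4 AS vehicle points, and the WT CORT points of Ngfr lie below those of WT vehicle.

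Ntrk3, the gene of TrkC, was steady in the libraries of the fit. Acute levels ran from 195 to 226 CPM in WT vehicle, 175 to 211 CPM in WT CORT, 175 to 234 CPM in AS vehicle and 184 to 206 CPM in AS CORT mice. The continuous groups had 175, 189, 195 and 181 CPM (WT vehicle), 187, 196, 220, 194 and 203 CPM (WT CORT), 164, 167, 194 and 169 CPM (AS vehicle) and 185, 186, 181, 195 and 171 CPM (AS CORT). Within each cohort all groups overlapped, and the log2 fold changes lay between -0.13 and 0.11 with no call. H9 and H13 held 74.3 and 99.8 CPM. With them included continuous CORT gave 0.25 (SE 0.191, adjusted p = 0.534) in WT and 0.26 (SE 0.191, adjusted p = 0.63) in AS mice. For acute CORT in AS mice Ntrk3 gave -0.07 (adjusted p = 0.39), and 0.03 (adjusted p = 0.976) with the division as a covariate.

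Ngfr, the gene of p75, was low in these libraries, with 16 to 41 counts in each acute library and 16 to 65 in each of the 18 continuous hippocampal libraries of the fit. Acute levels overlapped throughout, from 0.772 to 1.98 CPM, and CORT in AS mice gave a log2 fold change of -0.31 (adjusted p = 0.235), or -0.04 (adjusted p = 0.994) with the division as a covariate. In the continuous cohort WT vehicle mice had 1.8, 1.6, 1.85 and 2.95 CPM and WT CORT mice 1.31, 1.22, 1.21, 1.26 and 0.747 CPM. These 2 groups did not overlap, but the difference missed the threshold (log2 fold change -0.84, SE 0.229, adjusted p = 0.0559, edgeR). AS vehicle mice had 1.54, 1.61, 1.15 and 1.55 CPM and AS CORT mice 1.75, 1.19, 1.08, 0.744 and 1.26 CPM. Those groups overlapped (-0.28, SE 0.236, adjusted p = 0.651, and -0.45 to -0.15 when 1 library was left out), and the interaction was 0.55 (SE 0.33, adjusted p = 1).

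The WT comparison of Ngfr sat on the threshold and moved across it with the method. DESeq2 gave an adjusted p of 0.0376 and limma-voom 0.0256. The 2.95 CPM came from library H17, and without it the log2 fold change was -0.60 (adjusted p = 0.245) and the interaction 0.32 (adjusted p = 0.999). With H9 and H13 included, where Ngfr was high, the values were -1.95 (adjusted p = 0.0841) in WT mice, -0.72 (adjusted p = 0.638) in AS mice and 1.23 (adjusted p = 1) for the interaction. H17 held 2702 CPM of Ttr, the leading choroid plexus transcript. Of 4 choroid plexus markers tested out of 6, 2 fell with CORT in WT mice, and their sum over all 6 ran from 76.1 to 2868 CPM in WT vehicle and from 36.5 to 120 CPM in WT CORT mice. In AS mice these sums were 82.5 to 320 and 46.5 to 481 CPM. Markers of basal forebrain cholinergic neurons, which carry much p75, summed to at most 1.44 CPM in the 18 libraries. The part of either in the Ngfr values was not tested.

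Sort1, the gene of sortilin, which binds proneurotrophins and sorts BDNF to its release route, was among the steadiest of the 7. Acute levels were 891, 915 and 981 CPM in WT vehicle and 775, 948 and 981 CPM in WT CORT mice (lowest, median and highest). AS mice had 823, 904 and 953 CPM with vehicle and 775, 830 and 875 CPM with CORT. With CORT, the AS median lay below the WT median, and the groups overlapped through H8, at 775 CPM, and 1 other WT library. AS against WT mice given CORT gave a log2 fold change of -0.14 (SE 0.0559, adjusted p = 0.0679). Without H8 it was -0.20 (adjusted p = 0.00709), with DESeq2 the adjusted p was 0.0449, and with the low-quality-read division as a covariate the value turned to 0.02. In the continuous hippocampus Sort1 measured 801, 729, 812 and 790 CPM (WT vehicle), 805, 800, 847, 819 and 879 CPM (WT CORT), 772, 768, 796 and 800 CPM (AS vehicle) and 815, 824, 833, 837 and 783 CPM (AS CORT). CORT groups sat slightly higher in both genotypes without a call (0.08, SE 0.0419, adjusted p = 0.356 in WT and 0.06, SE 0.0418, adjusted p = 0.563 in AS). H9 and H13 held 565 and 515 CPM. With them included the values were 0.19 (SE 0.109, adjusted p = 0.41) in WT and 0.15 (SE 0.108, adjusted p = 0.63) in AS mice.

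Vgf, the precursor of secreted peptides such as TLQP-21, was the only one of the 7 genes called in the acute cohort. AS CORT mice had 153, 180 and 231 CPM (lowest, median and highest), and WT CORT mice 267, 302 and 336 CPM. Every AS CORT library lay below every WT CORT library. AS vehicle mice had 207, 261 and 300 CPM and WT vehicle mice 257, 267 and 305 CPM, which overlapped with each other. Vgf fell by 25.3% with CORT in AS mice (log2 fold change -0.42, SE 0.0988, adjusted p = 0.00535, edgeR), and was 0.13 higher on the log2 scale in WT mice without a call (SE 0.0984, adjusted p = 0.7). Between genotypes the log2 fold change was -0.67 with CORT (SE 0.099, adjusted p = 0.000151) and -0.12 with vehicle (SE 0.0985, adjusted p = 0.74). The interaction was -0.55 (SE 0.139, interval -0.821 to -0.275, adjusted p = 0.0353).

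The division of the acute libraries moved with this result. All 6 AS CORT libraries are in H17 to H24. Of the AS vehicle mice, those in H13 to H16 had Vgf levels of 210 to 300 CPM (median 270) and H17 and H18 had 207 and 262 CPM. Against H17 and H18 alone, CORT in AS mice gave -0.31 (adjusted p = 0.471) and the interaction -0.44 (adjusted p = 0.907). Against H13 to H16 alone, the values were -0.47 (adjusted p = 0.0015) and -0.60 (adjusted p = 0.00485). With the division as a covariate, CORT in AS mice gave -0.31 (SE 0.136, adjusted p = 0.501), the genotype difference with CORT was -0.51 (SE 0.175, adjusted p = 0.892) and the interaction -0.44 (SE 0.167, adjusted p = 0.891). Their unadjusted p-values (edgeR) were 0.0316, 0.00766 and 0.0153. The sign held in each of these fits, and no call held with the covariate. Without it the SEs were 0.0988, 0.099 and 0.139. A lost call here does not tell an effect of the division from lost precision. Under that covariate all genes lost calls as well, from 2612 to 150 for CORT in AS mice, from 3645 to 0 between genotypes with CORT and from 656 to 1 for the interaction.

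The longest transcript of Vgf is 64.1% G and C, the highest share of the 7 genes, against 58.6% in Ngfr, 40.9% in Bdnf and 43.6% to 51% in the rest. With the trends of each library on GC and length removed, Vgf was -0.41 (adjusted p = 0.00712) between genotypes with CORT, -0.23 (adjusted p = 0.107) for CORT in AS mice and -0.29 (adjusted p = 0.264) for the interaction. Over all genes, calls then went from 3645 to 2598 between genotypes with CORT and from 2612 to 2332 for CORT in AS mice. For the interaction they went from 656 to 0. The part of base composition in the Vgf values was not tested. Leaving out 1 library at a time, the interaction stayed between -0.63 and -0.49 and its adjusted p ran from 0.00767 to 0.0721, and the call was lost in 10 of 24 cases.

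**Figure D4:**
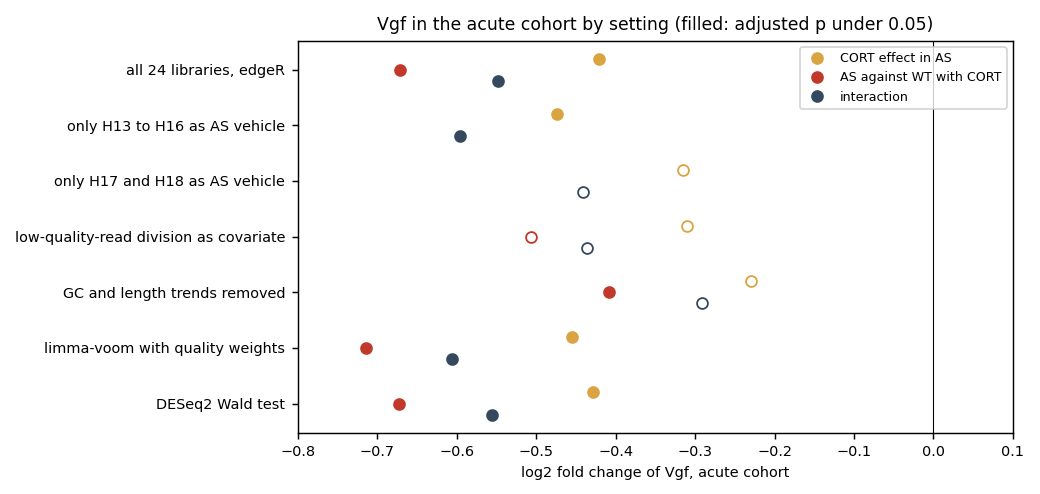
Log2 fold change of Vgf (horizontal axis) in the acute cohort under different processing settings, for CORT in AS mice, for AS against WT mice given CORT and for the interaction, with filled points past the threshold. All values lie below 0, from -0.71 between genotypes with limma-voom to -0.23 for CORT in AS mice with GC and length trends removed.

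Cell type markers stood beside the Vgf values as follows. Of 7 hippocampal neuron markers, 2 fell with CORT in AS mice, Slc17a7 (log2 fold change -0.33, adjusted p = 0.00777) and Neurod6 (-0.31, adjusted p = 0.0266). The other 5 were not called and ran from -0.22 for Fibcd1 to 0.36 for the granule cell gene Prox1. The interaction was called for Slc17a7 (-0.43, adjusted p = 0.0384) and for none of the other 6, which ran from -0.14 for Neurod6 to 0.55 for Prox1, and the median of the 7 was 0.0716. Their summed level was 2935 to 3338 CPM in AS CORT mice, against 3237 to 3994 in AS vehicle, 3353 to 4030 in WT CORT and 3504 to 3879 in WT vehicle mice. Of 6 oligodendrocyte markers, 2 fell as well, with sums of 1629 to 3258 CPM in AS CORT and 2403 to 4738 CPM in AS vehicle mice. With CORT in AS mice 1 of 4 endothelial markers (Cldn5, -0.51) and 1 of 6 striatal markers fell too, and 1 of 5 astrocyte markers (Aldh1l1, 0.20) rose. The interaction was also called for 1 of 6 striatal markers. Of all 45 markers tested, 7 were called for CORT in AS mice (15.6%, against 17.9% of all genes). For the interaction 2 were called (4.44%, against 4.49% of all genes).

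Between genotypes with CORT, where Vgf differed most, 14 of 45 markers tested were called (31.1%, against 24.9% of all genes), 3 higher and 11 lower in AS mice. Of the neuron markers Slc17a7 (log2 fold change -0.29, adjusted p = 0.0101) and Wfs1 (-0.59, adjusted p = 0.0443) were lower. Of 6 oligodendrocyte markers 3 were lower, Mbp (-0.67), Mag (-0.66) and Cldn11 (-0.70). Of 6 striatal markers 3 were lower, among them Drd2 (-0.41), and 1 was higher (Rgs9, 0.67). Single markers were lower for thalamus (Tcf7l2, -1.19), endothelium (Cldn5, -0.37) and meninges (Ogn, -1.59) and higher for astrocytes (Aqp4, 0.22) and blood (Hbb-bt, 1.44). With the library division as a covariate, 0 of these 14 calls, 0 of the 7 for CORT in AS mice and 0 of the 2 for the interaction were kept, and Slc17a7 was at 0.05, -0.09 and -0.19 in these comparisons. The part of these markers in the Vgf values was not tested.

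In the continuous cohort Vgf was not called in any comparison, with 182, 156, 197 and 178 CPM (WT vehicle), 175, 177, 163, 213 and 197 CPM (WT CORT), 224, 197, 161 and 168 CPM (AS vehicle) and 155, 201, 175, 172 and 230 CPM (AS CORT). Those groups overlapped fully, with log2 fold changes of -0.06 to 0.07.

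The wider pathway was read from a list of 57 genes that make, process, bind or relay neurotrophins, of which 54 were tested and the rest, Ntf5 and Plg among them, were too low. For acute CORT in WT mice, 1 of 54 was called, the Trk adaptor Sh2b2, with 4.95 to 7.68 CPM in vehicle and 9.17 to 17.6 CPM in CORT mice (log2 fold change 0.95, SE 0.158, adjusted p = 0.000696). The WT groups of Sh2b2 did not overlap. It also rose in AS mice (0.48, SE 0.159, adjusted p = 0.0364). The share called in WT mice, 1.85%, stood beside 1.48% of all genes. For acute CORT in AS mice 3 of 54 rose and 7 fell, which is 18.5% against 17.9% of all genes, with a median log2 fold change of -0.0544 against 0.00643 for all genes. Gab1, a docking adaptor that links Trk receptors to PI3 kinase, was at 26.7 to 45.1 CPM with vehicle and fell to 16.5 to 20.2 CPM with CORT (-0.95, SE 0.153, adjusted p = 0.00017). Plat, the tissue plasminogen activator that starts the cleavage of proBDNF by plasmin, rose by 24% (0.31, adjusted p = 0.0015).

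The p75 partners Lingo1 (-0.49, adjusted p = 0.000841) and Rtn4r (-0.45, adjusted p = 0.00449), and the kinase gene Rps6ka1 (-0.39, adjusted p = 0.00358), also fell with CORT in AS mice. Between genotypes with CORT, 3 of 54 were higher and 8 lower in AS mice, which is 20.4% against 24.9% of all genes, with a median of -0.0456 against -0.000212 for all genes. The adaptor Sh2b1 (-0.42, adjusted p = 0.000309), Rtn4r (-0.58, adjusted p = 0.000477) and the proneurotrophin convertase Furin (-0.27, adjusted p = 0.00154) were lower. The p75 interactor Bex3 (0.43, adjusted p = 0.00851) and the Trk scaffold Kidins220 (0.17, adjusted p = 0.0116) were higher. The interaction called 0 of 54 upward and 4 downward (7.41% against 4.49% of all genes), which were Furin (-0.30, adjusted p = 0.0373), Lingo1 (-0.49, adjusted p = 0.0384), Sh2b1 (-0.38, adjusted p = 0.0389) and Rtn4r (-0.49, adjusted p = 0.0496). With vehicle, 0 of 54 differed between the genotypes.

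In the continuous cohort, 1 of 54 was called over all comparisons (1.85% for CORT in AS mice, against 3.77% of all genes), the kinase gene Mapk7, which fell with CORT in AS mice (27 to 30.2 CPM with vehicle, 19 to 24.2 CPM with CORT, log2 fold change -0.39, adjusted p = 0.0289) and was not called with all 20 libraries. Of 6 granins, relatives of Vgf stored in the same dense-core vesicles, 1 was called for acute CORT in AS mice (17.9% of all genes were). Between genotypes with acute CORT 3 of 6 were called (24.9% of all genes). Scg2 was called in the direction opposite to Vgf in the acute AS mice. It rose with CORT (160 to 249 CPM with vehicle, 225 to 265 CPM with CORT, log2 fold change 0.36, SE 0.119, adjusted p = 0.0399) and was higher than in WT mice given CORT (0.56, SE 0.12, adjusted p = 0.00181). With the library division as a covariate these values were 0.02 (adjusted p = 0.994) and 0.03 (adjusted p = 0.993). Between those genotype groups Scg3 was higher (0.20, adjusted p = 0.0369) and Pcsk1n lower (-0.23, adjusted p = 0.0419). With continuous CORT, Scg3 fell in WT mice (-0.24, adjusted p = 0.0175), a call that was lost with all 20 libraries.

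Calls of the list genes named for the acute AS comparisons were lost when the library division entered the fit, while their sizes moved unequally. With the division as a covariate, 0 of 7 kept their call for CORT in AS mice, 0 of 8 between genotypes with CORT and 0 of 4 for the interaction. For CORT in AS mice Gab1 stayed at -0.76 (adjusted p = 0.0794), Plat at 0.27 (adjusted p = 0.213) and Sh2b2 at 0.66 (adjusted p = 0.29). Rtn4r was at -0.14, Lingo1 at -0.26 and Rps6ka1 at -0.17 in that fit. Between genotypes Sh2b1 was at -0.04, Rtn4r at -0.13, Furin at -0.12, Kidins220 at 0.11 and Pcsk1n at -0.22, and Bex3 (-0.18) and Scg3 (-0.03) changed sign.

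Against H17 and H18 alone, 0 of 7 kept their call for CORT in AS mice and 0 of 4 for the interaction, and against H13 to H16 alone 6 of 7 and 4 of 4 did. With GC and length trends removed, 6 of 7, 6 of 8 between genotypes and 0 of 4 kept it. Leaving out 1 library at a time, the interaction call was lost in 9 of 24 cases for Furin, 13 of 24 for Lingo1, 11 of 24 for Sh2b1 and 17 of 24 for Rtn4r. With CORT in AS mice it was lost in 6 of 12 cases for Sh2b2 and 8 of 12 for Scg2, between genotypes in 8 of 12 for Scg3 and 5 of 12 for Pcsk1n, and in the continuous cohort in 6 of 9 cases for Mapk7 and 2 of 9 for Scg3.

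Levels between genes were compared per kb of exon. In the acute hippocampus Sort1 stood first at 118 ± 8.45 CPM per kb (mean ± SD, n = 24), then Vgf at 85.6 ± 17.2, Ntrk2 at 32.2 ± 2.56, Ntrk3 at 6.62 ± 0.47, Bdnf at 5.99 ± 0.781, Ntf3 at 3.68 ± 1.29 and Ngfr at 0.416 ± 0.086. The lowest library for Ntrk2, at 23.5 CPM per kb, was above the highest for Bdnf, at 8.19. In the continuous hippocampus (n = 18) Sort1 was at 107 ± 4.39, Vgf at 62.1 ± 7.6, Ntrk2 at 31.4 ± 3.03, Bdnf at 6.75 ± 0.838, Ntrk3 at 6.17 ± 0.469, Ntf3 at 4.53 ± 1.3 and Ngfr at 0.416 ± 0.144 CPM per kb. Bdnf and Ntrk3 overlapped and exchanged places, with Ntrk3 higher in 19 of 24 acute libraries and Bdnf higher in 13 of 18 continuous ones. Exon length is that of all annotated exons together, so a gene whose mRNA uses few of them reads low on this scale.

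For each member, the 3 genes whose log2 CPM was most alike over the 24 acute and the 18 continuous libraries were taken among 14419 genes, by the lower of the 2 Pearson r. The points share library composition and depth, and the values are a description. Ntf3 went closest with C1ql2 (r = 0.901 acute, 0.874 continuous), Stxbp6 (0.866 and 0.885) and Prox1os (0.857 and 0.856), an antisense gene of Prox1, the granule cell transcription factor. Ntrk2 went with Tmod2 (0.825 and 0.927), Kcna2 and Rpgrip1l. Vgf went with Klc2 (0.92 and 0.787), the peptide gene Sst (0.794 and 0.739) and Tecr. Bdnf had weaker likeness, at best with the calcineurin subunit gene Ppp3ca (0.711 and 0.703), then Kcna4 and Epha7. Sort1 went with Cyfip2 (0.783 and 0.756), Med14 and Magi2, Ntrk3 with Gatad2b (0.706 and 0.726), Celf1 and Sec16a, and Ngfr with Wls (0.681 and 0.755), Tcf7 and Cyp2j6.

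The liver of the continuous cohort gave a second tissue for the same mice, with 18612550 to 20868924 counts on genes per library. This comparison was added after its values were seen. Sort1, which in hepatocytes takes part in lipoprotein trafficking, measured 30.2, 27.1, 36.7, 42.9 and 47.7 CPM in WT vehicle mice and 7.33, 7.45, 8.54, 7.37 and 6.63 CPM in WT CORT mice. AS vehicle mice had 32.5, 31.6, 41.3, 47.8 and 43.5 CPM and AS CORT mice 5.34, 7.55, 7.31, 4.62 and 6.58 CPM. No CORT library reached the lowest vehicle library in either genotype. Sort1 was 4.94-fold lower with CORT in WT mice (log2 fold change -2.30, SE 0.165, adjusted p = 9.44e-09, edgeR) and 6.25-fold lower in AS mice (SE 0.168, adjusted p = 9.89e-10). The interaction was -0.34 (SE 0.228, interval -0.787 to 0.107, adjusted p = 0.695).

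In the liver 4 of the 7 members passed the filter. Of these, 1 was called for CORT in WT mice (18.6% of 12273 genes) and 2 in AS mice (27.5%). The liver interaction called 0 genes (0%) with edgeR, where 995 had an unadjusted p under 0.05, while DESeq2 called 9 and limma-voom 1. The other call was Ngfr, with 5.15, 10.4, 9.35, 12.7 and 11.4 CPM in AS vehicle and 2.88, 6.52, 7.95, 5.66 and 3.85 CPM in AS CORT mice. These groups overlapped (log2 fold change -0.86, SE 0.299, adjusted p = 0.0373), and leaving out 1 library at a time gave adjusted p-values of 0.0107 to 0.102, with the call lost in 7 of 10 cases. In WT mice liver Ngfr gave -0.25 (SE 0.305, adjusted p = 0.637), and the interaction was -0.61 (SE 0.427, adjusted p = 0.711). Its mean level was 6.03 CPM in WT vehicle and 9.8 CPM in AS vehicle mice, against 5.07 and 5.37 CPM with CORT. Ntrk2 in liver ran from 1.26 to 33.8 CPM and Bdnf from 0.59 to 4.81 CPM without a call for CORT or the interaction. AS against WT mice was not tested in liver. Mean Ntrk2 there was 19.6 CPM in AS and 8.6 CPM in WT vehicle mice, and 11.5 and 5.15 CPM with CORT, in overlapping groups. Vgf reached at most 0.151 CPM and Ntrk3 at most 0.246 CPM in any liver.

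**Figure D5:**
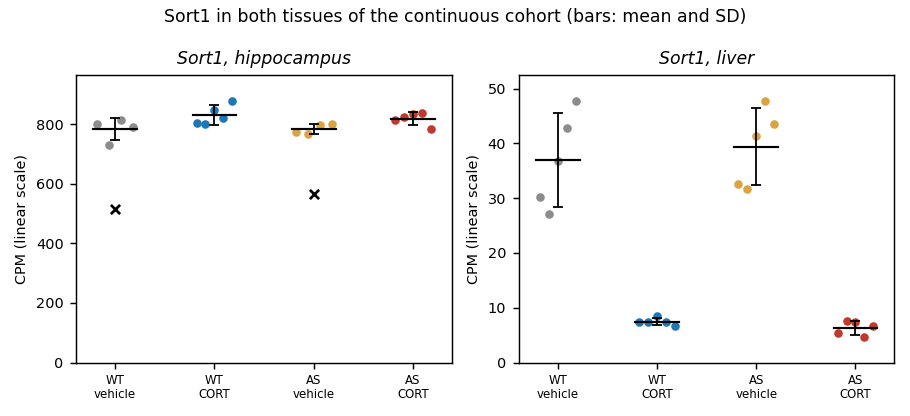
CPM of Sort1 (vertical axes, from 0) in the continuous hippocampus and in the liver, by group, with group means and SD and crosses for H9 and H13, which were left out. Liver values lie at 27.1 to 47.8 CPM with vehicle and at 4.62 to 8.54 CPM with CORT, while the hippocampal values in the fit stay between 729 and 879 CPM in all 4 groups.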

How the data were processed

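Per the labels and the study's methods, mRNA of hippocampus and liver was made into stranded libraries, sequenced as paired ends on the DNBseq platform, aligned to mm10 with STAR and counted per gene with HTSeq. The deposited values are raw read counts per gene in 1 table per cohort. The annotation release and the counting's strand setting are not given in the sources used here. Rows of the counter's own tallies were left out of library sizes and tests.

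Counts were scaled by TMM and tested with edgeR 4.0.16 (glmQLFit, glmQLFTest) in R 4.3.3, 1 coefficient per group. A gene was kept where 3 or more replicates of any group had over 20 normalised counts, and p-values were adjusted by Benjamini and Hochberg over all of them. H9 and H13 of the continuous hippocampus were left out, as in the study. The SE is the log2 fold change divided by the root of the F statistic, and 95% intervals use it. The self-test on simulated counts was run first. Alternatives were DESeq2 1.42.0, limma-voom (limma 3.58.1) with quality weights, other size factors, no filter, GC and length trends removed, single libraries left out, both sets of AS vehicle mice and the low-quality-read division as a covariate.

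The members, the gene lists and the tests were chosen with earlier results of these data known. From the lists, up to 3 rising and 3 falling genes per comparison with the smallest adjusted p were named, and genes outside this rule (Rtn4r for CORT in AS mice and for the interaction, Scg3 and Pcsk1n between genotypes) were named after their values were seen. Promoter windows are RefSeq's. The floor was set at 3 counts, 0.143 to 0.16 CPM in the acute libraries. P-values measure the spread between mice, and for genes of few counts such as Ngfr counting error was not separated from it. Some genes of the lists are not reported here.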

Additional observations from a re-analysis of the deposited data

Results flagged for a closer look

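The CORT effect on Vgf differed between the genotypes in the acute hippocampus by the test of the difference itself, with an interaction of -0.548 on the log2 scale (SE 0.139, adjusted p = 0.0353, edgeR). That call was lost with the library division as a covariate (-0.44, SE 0.167, adjusted p = 0.891) and against H17 and H18 alone (adjusted p = 0.907). It was also lost with GC and length trends removed (-0.29, adjusted p = 0.264) and in 10 of 24 fits that left out 1 library. The Vgf level was lower in 6 of 6 AS CORT libraries than in any WT CORT library. All 6 are in H17 to H24, the libraries with 2640 to 2850 low-quality reads, so the division cannot be told apart from the genotype among CORT mice.

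Within groups, 5 of 56 groups of a member held a library far from the others, where chance gives about 1 in 20. Library H8 of the acute WT CORT group was highest for both ligands. It had 50.9 CPM of Bdnf against 31.5 to 37.6 CPM in the other 5, and 12.5 CPM of Ntf3 against 3.28 to 6.28 CPM. In the acute AS CORT group H23 had 9.67 CPM of Ntf3 against 5.62 to 6.93 CPM. For Ngfr, H20 of the continuous WT CORT group had 0.747 CPM against 1.21 to 1.31 CPM, and H14 of the AS vehicle group 1.15 CPM against 1.54 to 1.61 CPM.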

How the results depend on the processing

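Of the member counts recomputed under settings other than leaving out 1 library, 91 stayed within 1.5 times the reported count and 15 did not. Most reported counts were 0 or 1, for which this means an unchanged count, and a 0 that stayed 0 is among the 91. Counts in brackets are those of all genes called under the same setting. For acute CORT in AS mice, limma-voom called 2 members (5056 of 14611 genes). Removing GC and length trends (2332), the low-quality-read covariate (150) and keeping just H17 and H18 of the AS vehicle mice (132) each called 0. Between genotypes with CORT, DESeq2 called 2 (3895 of 14611 genes), limma-voom 3 (5328) and the covariate 0 (0), and leaving out 1 library gave 1 to 2. For the acute interaction, limma-voom called 2 (3353 of 14611 genes). GC and length (0), the covariate (1), H17 and H18 alone (0) and a threshold of 0.01 each called 0, and leaving out 1 library gave 0 to 1. For continuous CORT in WT mice DESeq2 (608 of 14949 genes) and limma-voom (632) each called 1, and leaving out 1 library gave 0 to 1. In AS mice all 20 libraries called 0 (221 of 15080 genes). In liver AS mice, leaving out 1 library gave 1 to 2.

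Of the 70 hippocampal member values, each repeated under 7 to 10 settings and without each library, 34 turned sign at least once. None of the 34 was called, and the largest was 0.244 in size. The turns that bear on values described above were these, a part of the 34, with the list genes Bex3 and Scg3 added from outside the 34. Bdnf with CORT in WT mice became 0.024 (acute) and 0.0090 (continuous) with GC and length trends removed, and acute AS against WT mice given CORT -0.037. With all 20 libraries continuous Bdnf became 0.25 in WT and 0.14 in AS mice and Ntf3 0.066 in WT mice, and leaving out 1 library spanned -0.097 to 0.049 in WT mice for Bdnf. Acute Ntrk2 with CORT in WT mice became 0.036 with limma-voom and spanned -0.078 to 0.037 when 1 library was left out. With CORT in AS mice acute Sort1 became 0.0057, Ntrk2 0.0069 and Ntrk3 0.031 with the covariate, and 0.00088, 0.0020 and 0.026 with H17 and H18 alone. With the covariate, AS against WT mice given CORT gave 0.020 for Sort1, -0.11 for Ntf3, -0.18 for Bex3 and -0.032 for Scg3. The cause was not tested. No paired analysis was possible because each comparison was made within a tissue, between different mice, and replicate numbers were given in accession order. Hippocampus and liver of a mouse were not compared. Ngfr rests on just 16 to 65 counts in the fitted hippocampal libraries, and the part of counting error in its values was not tested.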
